A study of Mus musculus with 4 samples.

Results

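The alpha, beta and gamma tubulin genes of mouse testis were followed in 2 RNA-seq libraries, 1 of Piwil1+/- and 1 of Piwil1-/- testis, both at postnatal day 23. The members are 10 genes chosen by name: the alpha isotypes Tuba1a, Tuba1b, Tuba3a, Tuba3b, Tuba4a and Tuba8, the beta isotypes Tubb3, Tubb4b and Tubb5, and the gamma tubulin Tubg1. All 10 were found among the 22808 gene identifiers of the expression table, and all 10 were among the 9951 genes with a level of 1 or more in either library. Levels are given as RPKM, reads per kilobase of gene scaled by the reads of the library, as the authors deposited them. The Piwil1+/- library, from mice with a disrupted copy of Piwil1 beside an intact copy, served as the control, and wild-type RNA of this age was not analysed here. The labels state neither the strain of the mutants, nor how the allele was made, nor how many animals went into a library. The series also holds small RNAs bound by the PIWIL1 protein in adult wild-type testis, which name no gene and were not used here.

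Alpha and beta tubulin pair into the heterodimers that polymerise into microtubules, and gamma tubulin starts new microtubules at centrosomes. Mammals make several isotypes of each, which differ mainly at the C-terminal tail, where glutamates and glycines are added and the final tyrosine is removed and restored. In male germ cells microtubules build the meiotic spindles, the manchette that shapes the spermatid head, and the axoneme of the sperm tail. PIWIL1, also called MIWI, is the small RNA-guided Argonaute protein that meiotic and postmeiotic germ cells carry.

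Of the 10 tubulin genes, the alpha isotypes Tuba8 and Tuba4a were lower in Piwil1-/- testis, and the other 8 lay close to their control level. Tuba8 was 5.14-fold lower and Tuba4a 3.25-fold lower. The abundant germ cell isotypes Tuba3a, Tuba3b and Tubb4b differed by under 6% in either direction (4.0% and 3.01% higher, and 5.65% lower). With 1 library per genotype there is no replicate check and no p-value, and in whole testis fewer cells of a type cannot be told apart from less RNA per cell. The targeted gene matched the labels, with Piwil1 RNA at 26.2 RPKM in the heterozygote and a listed value of 0 in the null testis.

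The libraries were scaled to 104014686 reads (Piwil1+/-) and 100254357 reads (Piwil1-/-), totals worked out from the RPKM values. Whole reads could be recovered for all 10 members. They are the smallest numbers that fit both values and are therefore written as "at least". Intervals given with ratios are exact 95% binomial intervals of these reads. They cover counting error only and neither differences between animals nor PCR copies; more reads in the same ratio would narrow them. The tissue label held up against its markers. Meiotic prophase genes summed to 932 RPKM in Piwil1+/- and 1009 in Piwil1-/-, Sertoli cell genes to 161 and 166, and Leydig cell genes to 149 and 123. Insl3, a defining Leydig product, was listed at 0 in Piwil1+/-.

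The tubulin RNA of day 23 testis was dominated by a few isotypes. Tuba3b (chromosome 6, 145615963 to 145621477, mm10), an alpha tubulin enriched in testis, had the highest level of the members at 260.3 RPKM in Piwil1+/- and 268 RPKM in Piwil1-/-. It ranked 40th and 38th among the 9951 genes. Tuba3a (chromosome 6, 125278270 to 125286081), its close copy, was at 169 RPKM in Piwil1+/- and 176 RPKM in Piwil1-/-. Between them in level came the beta isotype Tubb4b (chromosome 2, 25222158 to 25224702), known from cilia and flagella, at 219 and 207 RPKM. Each of these 3 genes lay above 99% of the measured genes in both libraries.

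A step below were isotypes of wide expression. Tuba1a (chromosome 15, 98949847 to 98953501), the main alpha tubulin of developing neurons, was at 27.7 RPKM in both libraries. Tubb5 (chromosome 17, 35833920 to 35838301), a beta tubulin of dividing cells, was at 21.6 RPKM in Piwil1+/- and 20.1 RPKM in Piwil1-/-. Tuba1b (chromosome 15, 98931429 to 98934390), a general alpha tubulin next to Tuba1a, was at 12.4 and 12.6 RPKM. These 3 genes held the 4th to the 6th place among the members in either library.

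The lowest 4 places followed. Tuba8 (chromosome 6, 121210734 to 121226098), an alpha isotype with an unusual sequence that is made in testis and muscle, was at 10.7 RPKM in Piwil1+/- and 2.08 RPKM in Piwil1-/-. Tuba4a (chromosome 1, 75214972 to 75221261), whose gene encodes no C-terminal tyrosine, was at 9.12 and 2.81 RPKM. Tubb3 (chromosome 8, 123411553 to 123422015), the neuronal beta isotype, was at 5.37 RPKM in Piwil1+/- and 6.08 RPKM in Piwil1-/-. Tubg1 (chromosome 11, 101119904 to 101126423), the main gamma tubulin, was lowest in either library, at 1.81 and 1.51 RPKM. Tuba8 went from the 7th to the 9th place and Tubb3 from the 9th to the 7th, while the other 8 members kept their place. The order of neighbours has no spread over samples to be read against.

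**Figure D1:**
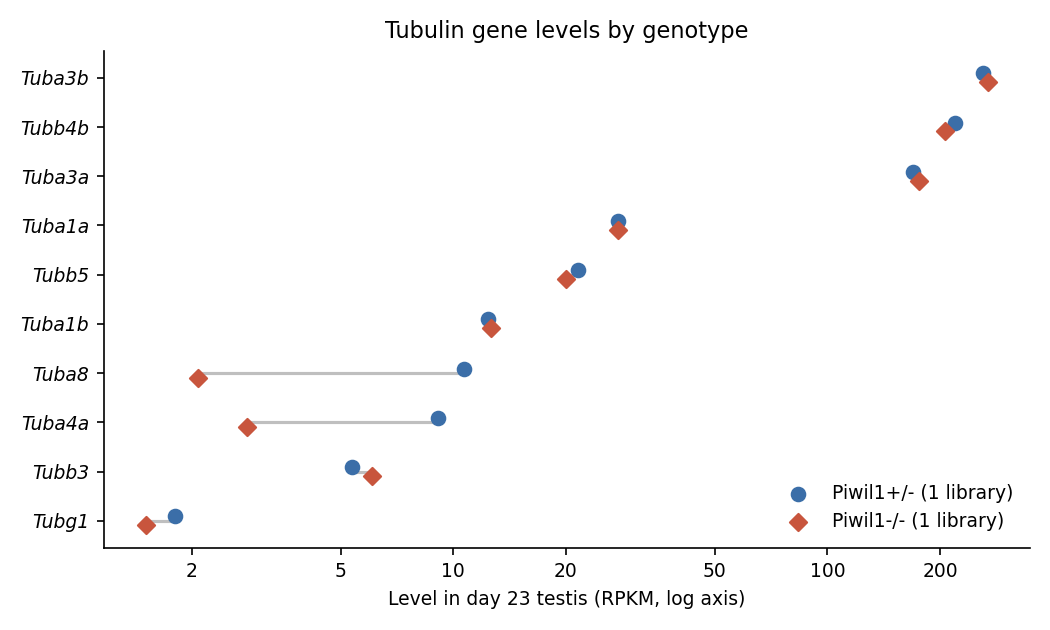
Level of each of the 10 tubulin genes (RPKM, log axis) in the Piwil1+/- library (blue circles) and the Piwil1-/- library (red diamonds), 1 library each, with a grey line joining the values of a gene. Tuba8 and Tuba4a are the genes whose points lie far apart, at 10.7 and 2.08 RPKM and at 9.12 and 2.81 RPKM.

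Genes that share sequence limit how finely these levels can be read. Tuba3a and Tuba3b encode near-identical proteins, as do Tuba1a and Tuba1b, and the sources do not say how the authors treated reads that fit several genes. The ratio of Tuba3b to Tuba3a was 1.54 in Piwil1+/- and 1.53 in Piwil1-/-. The lengths behind the RPKM values also differ in kind. For Tuba3a and Tuba3b the shortest gene length that fits is 1353 bp, for Tuba1b and Tubg1 1356 bp, for Tuba8 1350 bp and for Tubb4b 1338 bp, all multiples of 3 and the size of a tubulin coding sequence. The shortest fits of Tubb5 (1535 bp), Tubb3 (861 bp) and Tuba1a (452 bp) are not of this size, and their true lengths may be multiples of these. Tuba4a fits no length under 4199 bp, so its RPKM spreads over a longer model and compares less directly with the other members. A ratio between genotypes of 1 gene does not depend on this length.

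The regions upstream of the 2 abundant and the 2 lower alpha genes are shown because these pairs behaved differently between the genotypes. Each line gives the 250 bases before a RefSeq start (GRCm38.p6), 5′ to 3′ on the gene's strand, with CCAAT or its reverse complement, the box bound by the factor NF-Y, in capitals. The windows are chr6:125286082-125286331 (minus strand) for Tuba3a, chr6:145615713-145615962 (plus strand) for Tuba3b, chr1:75219295-75219544 (minus strand) for Tuba4a and chr6:121210484-121210733 (plus strand) for Tuba8. Those of Tuba3a, Tuba3b and Tuba8 adjoin the 5′ end of the gene, while that of Tuba4a precedes a start 1967 bp inside the gene's span, and the region before the 5′ end of that span was not analysed here.
Tuba3a: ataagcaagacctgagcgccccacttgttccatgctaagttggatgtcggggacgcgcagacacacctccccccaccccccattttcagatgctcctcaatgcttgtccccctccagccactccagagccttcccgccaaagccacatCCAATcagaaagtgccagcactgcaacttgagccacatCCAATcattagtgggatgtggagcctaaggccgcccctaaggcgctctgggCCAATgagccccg
Tuba3b: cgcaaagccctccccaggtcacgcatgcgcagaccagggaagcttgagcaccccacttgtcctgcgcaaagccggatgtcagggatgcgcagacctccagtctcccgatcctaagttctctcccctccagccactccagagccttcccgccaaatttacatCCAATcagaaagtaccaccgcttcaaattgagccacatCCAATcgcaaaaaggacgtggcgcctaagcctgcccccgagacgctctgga
Tuba4a: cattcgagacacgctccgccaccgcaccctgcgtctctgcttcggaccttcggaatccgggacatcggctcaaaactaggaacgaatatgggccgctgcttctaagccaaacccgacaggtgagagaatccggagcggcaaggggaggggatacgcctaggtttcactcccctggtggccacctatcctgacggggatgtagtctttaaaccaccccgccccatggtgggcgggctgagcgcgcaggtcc
Tuba8: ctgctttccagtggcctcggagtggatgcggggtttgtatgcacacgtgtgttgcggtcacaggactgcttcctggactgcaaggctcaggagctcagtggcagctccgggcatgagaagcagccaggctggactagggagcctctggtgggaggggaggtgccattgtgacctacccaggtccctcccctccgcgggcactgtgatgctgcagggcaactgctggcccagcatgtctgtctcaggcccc

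Tuba3a and Tuba3b were alike upstream. In a global alignment 69.2% of the 250 bases were identical, and the longest unbroken match was the 33 bases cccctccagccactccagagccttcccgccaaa, which stands shortly before the first CCAAT box of each. The other 35 pairs among the 9 members with a window were 42% to 55.6% identical, with no shared run over 11 bases. The highest of these was the pair of Tuba4a and Tuba8. Tuba3a held 3 CCAAT boxes and Tuba3b 2, while Tuba4a and Tuba8 held none. Tubb4b, the dominant beta gene, held 5. CCAAT was found on either strand in 6 of the 9 members and in 33.8% of 32851 windows of all genes, the member without it besides Tuba4a and Tuba8 being Tuba1b. GGGCGG, the box of Sp1-like factors, was in 6 of 9 members and 32.7% of windows, Tuba4a among them and Tuba8 not. TGACG, the core of the cAMP response element, was in 2 of 9, Tuba4a and Tubb4b, and in 17.8% of windows. None of these 3 motifs contains another. The matches describe letters in these windows, for Tuba4a those before the internal start only, and show no binding. A link of upstream sequence to the difference between genotypes was not tested.

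The difference between genotypes was taken as log2 (RPKM + 1) in Piwil1-/- minus that in Piwil1+/-, over the 9951 genes with 1 RPKM or more in either library. A 2-fold size was used for calls, and as a smaller size a gap of 25%, counted on the lower of the values; both sizes are read on RPKM + 1, which understates the difference of low genes. Past 2-fold, 2 of the 10 members were lower and 0 higher, against 1.96% of all genes lower and 0.231% higher. Past 25%, Tuba8 and Tuba4a were again the members lower and 0 were higher, against 10.3% and 5.81% of all genes. The median difference of the members was -0.04, beside 0.01 for all genes.

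Tuba8 had a log2 difference of -1.92, the 19th lowest of the 9951 genes. It rests on at least 1498 reads in Piwil1+/- and 281 in Piwil1-/-, and the interval of the ratio runs from 4.52-fold to 5.86-fold lower. Tuba4a had a log2 difference of -1.41, the 83rd lowest, from at least 3983 and 1183 reads, with an interval of 3.04-fold to 3.47-fold lower. Neither interval reaches the 2-fold line. Both genes stood near the middle of the measured genes in Piwil1+/- and in the lower part in Piwil1-/-: Tuba8 went from the 63.5th to the 20.3rd percentile of level and Tuba4a from the 59.1st to the 28.5th.

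The 8 remaining members lay between -0.16 and 0.15 on the log2 scale, 4 below 0 and 4 above. Tuba3a had a ratio of Piwil1-/- to Piwil1+/- of 1.04 (interval 1.02 to 1.06) and Tuba3b one of 1.03 (1.02 to 1.05). Tubb4b had a ratio of 0.943 (0.928 to 0.959) and Tubb5 one of 0.929 (0.884 to 0.975). For these 4 genes and for Tuba4a and Tuba8 the counting interval did not include 1, lower in 4 members and higher in 2. At this depth that was true of many genes, 26.7% on the lower and 27.2% on the higher side, so the small differences are near the background of the comparison. Tuba1a had a ratio of 1.0 (0.925 to 1.08) and Tuba1b one of 1.02 (0.954 to 1.09). Tubb3 was at 1.13 (0.999 to 1.28) and Tubg1 at 0.834 (0.691 to 1.01), the members with the fewest recovered reads over both libraries.

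**Figure D2:**
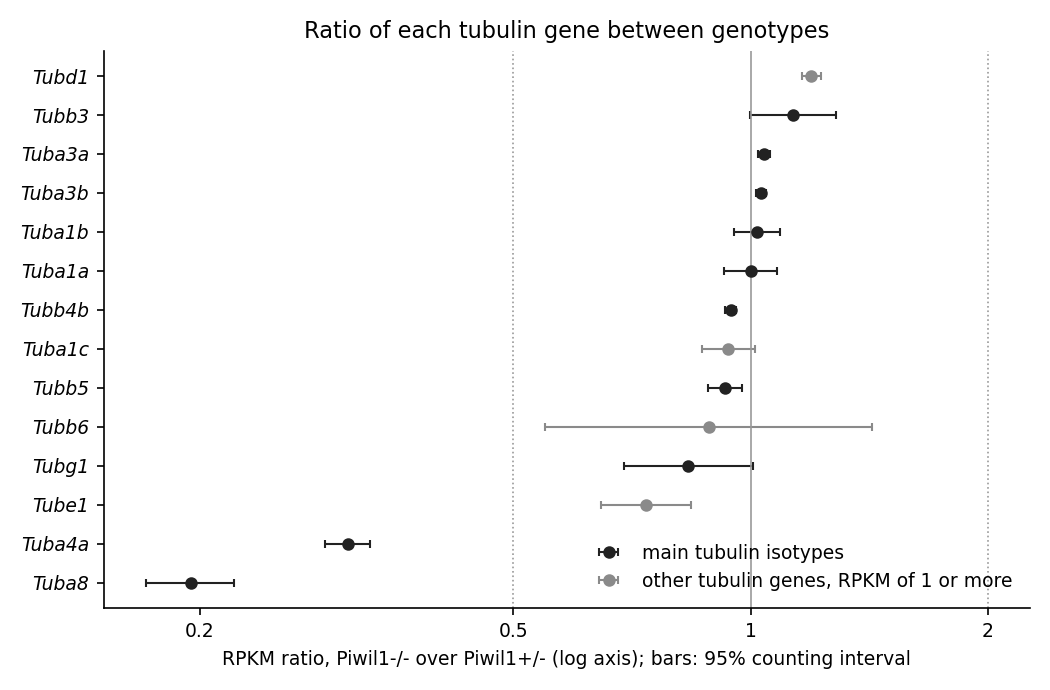
Ratio of RPKM in Piwil1-/- to that in Piwil1+/- (log axis) for the 10 main tubulin isotypes (black) and the 4 other tubulin genes with an RPKM of 1 or more (grey), with exact 95% intervals that cover counting error only; the solid line marks an equal level and the dotted lines 2-fold. Tuba8 (0.195) and Tuba4a (0.308) lie left of the lower dotted line, and the other genes lie between the dotted lines.

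Genes that lie on or beside the members were checked, since reads of overlapping genes may have been shared. Tuba4a overlaps the kinase gene Stk16 by 635 bp, and Stk16 was at 13.4 RPKM in Piwil1+/- and 14.4 RPKM in Piwil1-/-, on the opposite side of equal from Tuba4a. The other gene overlapping Tuba4a, A630095N17Rik, was under 1 RPKM in both libraries (0.155 and 0.121). No RefSeq gene lies within 3000 bp of Tuba8. Tubb4b overlaps Fam166a by 124 bp, and Fam166a was at 9.71 RPKM in Piwil1+/- and 3.20 RPKM in Piwil1-/-, a log2 difference of -1.35, next to a Tubb4b that was 5.65% lower. Tuba1b lies within Gm41396, a long non-coding RNA gene that overlaps it by 2962 bp and for which no level was found. The remaining genes found within 3000 bp of a member overlap none, the nearest lying 63 bp from Tubg1.

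The alpha tubulin RNA as a whole was at nearly the same level in both genotypes although Tuba8 and Tuba4a were lower. Summed over 8 alpha genes, the 6 members with Tuba1c and Tubal3, it came to 499.4 RPKM in Piwil1+/- and 498.7 RPKM in Piwil1-/-. Tuba3a and Tuba3b together made up 86.0% of this sum in Piwil1+/- and 89.0% in Piwil1-/-. Tuba4a and Tuba8 together made up 3.96% and 0.980%. Their sum was 14.9 RPKM lower in Piwil1-/-, from 19.8 to 4.89 RPKM, and that of Tuba3a and Tuba3b was 14.6 RPKM higher, from 429 to 444 RPKM. The higher sum depends on the scaling. With ribosomal protein scaling the log2 difference of Tuba3b went from 0.043 to 0.021 and that of Tuba3a from 0.056 to 0.034. A link between the sums was not tested. For each RPKM of Tuba8 there were 24.4 RPKM of Tuba3b in Piwil1+/- and 129 RPKM in Piwil1-/-.

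Beta tubulin was even more a matter of a single gene. The 8 beta genes summed to 248 RPKM in Piwil1+/- and 234 RPKM in Piwil1-/-, and Tubb4b supplied 88.4% and 88.2% of it. Tubb5 supplied 8.71% and 8.56%, and Tubb3 2.17% and 2.60%. The alpha sum was 2.01 times the beta sum in Piwil1+/- and 2.13 times in Piwil1-/-. Without Tuba3a and Tuba3b, whose reads may be shared, these values were 0.283 and 0.234. Tubg1 made up 98.1% of the gamma tubulin RNA in Piwil1+/- and 98.6% in Piwil1-/-.

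**Figure D3:**
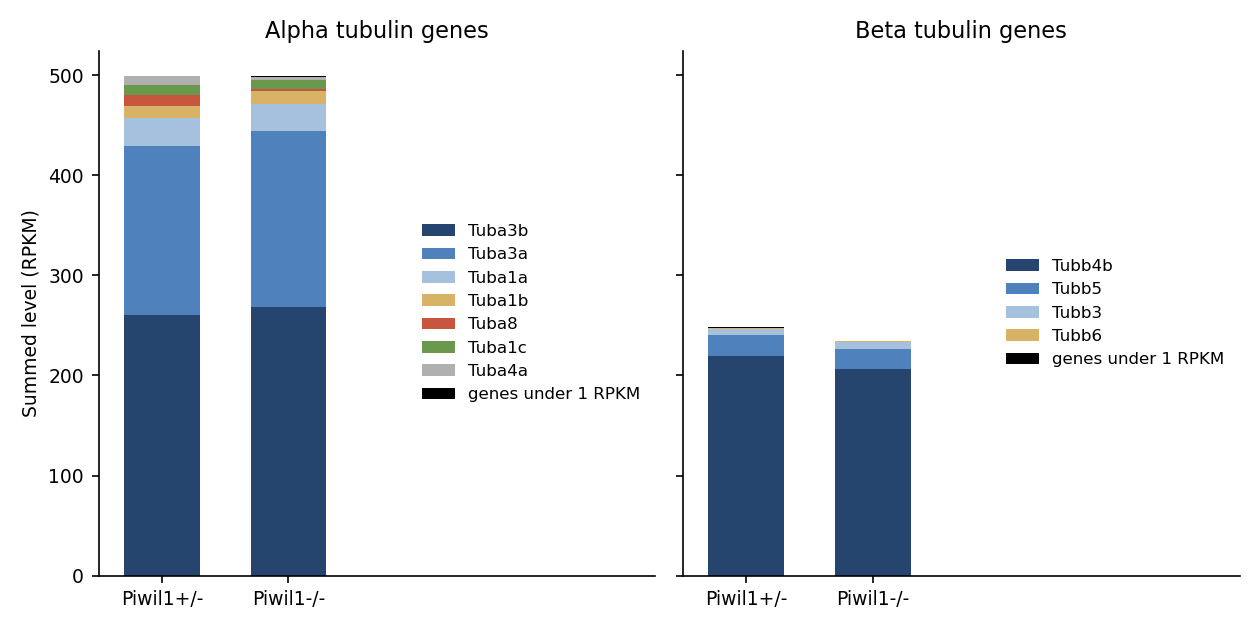
Summed level (RPKM) of the alpha tubulin genes (left) and the beta tubulin genes (right) in 1 library per genotype, with each gene as a segment of the bar and genes under 1 RPKM joined in black. The alpha bars reach 499.4 and 498.7 RPKM, mostly Tuba3b and Tuba3a, and the beta bars 248 and 234 RPKM, mostly Tubb4b.

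Of 10 further tubulin genes, 4 reached 1 RPKM in either library and none passed 2-fold or 25% on the log2 (RPKM + 1) scale. Tuba1c, a general alpha tubulin, was at 10.02 RPKM in Piwil1+/- and 9.39 RPKM in Piwil1-/-. Tubd1 and Tube1, the delta and epsilon tubulins of centrioles and basal bodies, went opposite ways. Tubd1 was at 14.8 and 17.7 RPKM, a ratio of 1.19 (interval 1.16 to 1.23), and Tube1 at 2.59 and 1.91 RPKM, a ratio of 0.737 (0.647 to 0.840), past 25% without the added 1 RPKM. Tubb6 was at 1.17 and 1.04 RPKM. The other 6, Tubal3, Tubb1, Tubb2a, Tubb2b, Tubb4a and Tubg2, were at most at 0.639 RPKM, and Tubb4a was listed at 0 in both libraries.

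Genes that fold, place and cut tubulin lay within 2-fold, as nearly all genes did. Of all 9951 genes 1.96% were 2-fold lower and 0.231% 2-fold higher, and past 25% 10.3% were lower and 5.81% higher. The counts of this and the following lists are to be read beside these shares. In the folding list, with the chaperonin subunits, prefoldins and tubulin cofactors, 20 of 22 genes were measured, 0 passed 25% in either direction, and the median difference was 0.02. Its widest differences were those of the cofactors Tbcb (0.21), at 10.4 RPKM in Piwil1+/- and 12.2 RPKM in Piwil1-/-, and Tbca (-0.21), at 11.4 and 9.76 RPKM. The gamma tubulin ring complex, which uses the product of Tubg1 as its template, and its adaptors had 18 of 19 genes measured, 0 past 25% and a median of 0.06. There Haus8 and Haus1, subunits of augmin, were at 0.26 and -0.20. The severing enzymes had 7 of 9 measured, 0 past 25% and a median of 0.04, with the katanin regulator Katnbl1 at 0.14 and spastin, Spast, at 0.11.

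Enzymes that add residues to tubulin tails differed in both directions. Of 14 genes of the Ttl family, which add tyrosine, glutamate or glycine, 13 were measured; 0 were 2-fold lower and 1 was 2-fold higher, and past 25% 5 were lower and 1 higher. The median was -0.13. The higher gene was Ttll1, catalytic subunit of a polyglutamylase needed for sperm tails, at 7.04 RPKM in Piwil1+/- and 15.6 RPKM in Piwil1-/-, a log2 difference of 1.05 and a ratio of 2.22 (interval 2.05 to 2.41). On the other side stood Ttll2, a further ligase gene of the family, at 1.58 and 0.350 RPKM. Its ratio was 0.222 (0.164 to 0.297), which the added 1 RPKM turns into a log2 difference of -0.93, short of the 2-fold line. Ttll10, a glycine ligase of the family, was at 2.01 and 0.781 RPKM, and with an added 0.1 RPKM in place of 1 both it and Ttll2 were past 2-fold, which makes 2 lower and 1 higher.

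The enzymes that remove residues, carboxypeptidases of the Agbl family and the vasohibins, had 7 of 9 genes measured, 0 past 25% and a median of -0.13. Svbp, the vasohibin partner, was at -0.22 and the deglutamylase Agbl3 at -0.18. The 3 genes of lysine acetylation were all above 0, with 1 past 25%: Sirt2, a deacetylase, at 5.77 RPKM in Piwil1+/- and 8.21 RPKM in Piwil1-/- (0.44). The acetylase Atat1 was at 0.15. Of 24 genes that bind microtubule ends and lattices 14 were measured, 0 passed 2-fold, 4 were lower and 1 higher past 25%, and the median was -0.06. Mapre3, an end-binding protein, was at 4.25 and 1.91 RPKM (-0.85); its ratio of 0.449 (0.398 to 0.506) is past 2-fold without the added 1 RPKM. Clip4, of the plus-end linker family, was at 13.7 and 7.42 RPKM (-0.81).

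Spermatid genes were lower in the same library in which Tuba8 and Tuba4a were lower. Of 13 elongating spermatid markers 10 were measured, with 8 at least 2-fold lower, 0 higher and a median of -1.31. Their summed level was 612 RPKM in Piwil1+/- and 412 RPKM in Piwil1-/-, and Prm1, Prm2 and Tnp1 were listed at 0 in Piwil1-/- only. These genes were already low in Piwil1+/-, with Prm2 at 1.42 RPKM and Prm1 and Tnp1 under 1 RPKM. The differences of Tuba8 and Tuba4a, -1.92 and -1.41, fell within the range of the measured elongating spermatid markers, -2.47 for Cabs1 to -0.27 for Odf2. The measured round spermatid markers, 12 of 12, had 4 at least 2-fold lower, 0 higher and a median of -0.55, and summed to 344 and 273 RPKM. Their range, -1.50 to 0.05, also held the difference of Tuba4a and not that of Tuba8. Meiotic prophase markers had 0 of 15 past 25% and a median of 0.11, and spermatogonial markers 0 of 4 and a median of 0.01. The part of the number of spermatids in the difference of Tuba8 and Tuba4a was not tested. The marker lists were chosen with earlier results of these data known, so their counts and ranges are no independent evidence.

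The lists of somatic and other cell types had medians on the log2 (RPKM + 1) scale that differed less than those of the spermatid lists. Sertoli cell markers had 1 of 7 past 25%, on the higher side, and a median of 0.10; Leydig cell markers had 0 of 5 and a median of -0.16; leukocyte and endothelial markers 0 of 3 and a median of -0.02. Of 6 peritubular myoid markers 1 was 2-fold lower, Actg2 (17.6 and 3.04 RPKM), the median was 0.03, and the list summed to 56.1 and 44.8 RPKM. The other measured markers of this list lay between -0.11 and 0.22, so the lower sum comes from Actg2. Muscle also makes Tuba8, and the part of this cell type in its difference was not tested. Red blood cell markers had 2 of 3 lower past 25% and a median of -0.41, and summed to 10.5 RPKM in Piwil1+/- and 7.30 RPKM in Piwil1-/-. With no pseudocount their median was -0.604 and that of the round spermatid markers -0.598, so the order of these lists depends on the pseudocount.

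**Figure D4:**
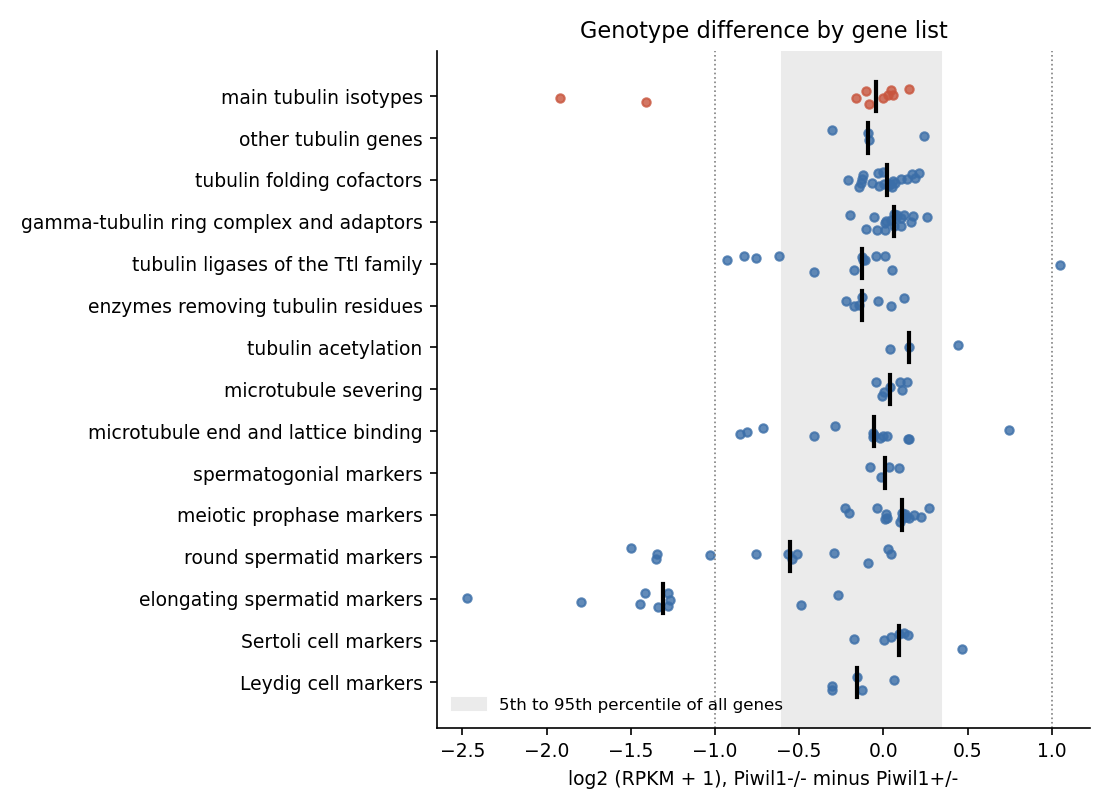
Difference of log2 (RPKM + 1), Piwil1-/- minus Piwil1+/- (horizontal axis), for each measured gene (points, spread vertically to be visible) of the main tubulin isotypes (red) and of the pathway and cell type lists (blue), with black bars at list medians, dotted lines at 2-fold and a grey band from the 5th to the 95th percentile of all 9951 genes (-0.60 to 0.34). Tuba8 and Tuba4a stand apart from the other tubulin genes at -1.92 and -1.41, in the range of the elongating spermatid markers, whose median is -1.31. Tuba4a also lies in the range of the round spermatid markers. The peritubular myoid, leukocyte and endothelial, and red blood cell lists are not drawn. The range of the myoid list, -2.20 to 0.22, also holds Tuba8 and Tuba4a, through Actg2 alone.

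Genes with the most similar pair of values were looked up by the Euclidean distance of log2 (RPKM + 1) over the 2 libraries. Nearest to Tuba8 were 4921507P07Rik (10.9 and 2.42 RPKM, distance 0.155), Tex35 (9.41 and 1.85 RPKM, 0.198) and Apobec4 (9.53 and 2.47 RPKM, 0.230). Nearest to Tuba3b were Gkap1 (261 and 255 RPKM, 0.0739), Diablo (255 and 251 RPKM, 0.0986) and Kpna2 (279 and 267 RPKM, 0.102). With 2 values per gene such nearness describes level and ratio alone. The reference genes Actb and Gapdh had log2 differences of -0.11 and -0.02.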

How the data were processed

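The deposited RNA-seq values are RPKM, per the file headers, computed by the authors, with 1 column for Piwil1+/- and 1 for Piwil1-/- testis. Per the labels' protocols, ribosomal RNA was removed from total RNA with a Ribo-zero kit before directional TruSeq libraries were made. Bowtie, STAR and mm10 are named in the submitters' processing notes without their roles. How reads were counted, on which annotation and strand, and how reads that fit several genes were handled is not given in the sources used here. Library totals were worked out from 37 genes (Piwil1+/-) and 29 genes (Piwil1-/-) with a RefSeq span under 1500 bp, taken as their gene length. For each gene, the shortest length from 50 to 20000 bp at which both RPKM values give whole reads, within 1e-08 of the value, was then found. In a sample of 2000 genes 98.6% got reads, and in 62.5% of those with 100 or more reads in both libraries the length was a multiple of 3, so many gene lengths appear to be coding lengths.

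Symbols were matched for 22444 of 22808 identifiers; coordinates and upstream sequences are RefSeq's on GRCm38.p6, the assembly called mm10. Of the members, 9 had an upstream window and Tubg1 was not matched. Differences are of log2 (RPKM + 1) over genes with 1 RPKM or more in either library. The genes, the lists and the rules were chosen with earlier results of these data known. Genes named besides the members are Piwil1, the other tubulin genes, the widest 2 of each list with any past 2-fold, the nearest genes, and Actb and Gapdh; genes overlapping a member, Odf2, Insl3, Prm1, Prm2 and Tnp1 (listed at 0), and genes such as Ttll10 that pass a size only with another pseudocount were added after their values were seen. Python 3.11.15, numpy 2.4.6, pandas 2.3.3, scipy 1.17.1 and biopython 1.88 were used. On simulated reads for the real genes of this comparison, the 2-fold rule found 100 of 100 genes lowered 4-fold and 100 of 100 lowered 3-fold, and 0 of 9751 unchanged genes; reads in the true ratio were recovered for 400 of 400 genes. The lowered genes were drawn only from genes above a set mean level, so genes as low as Ttll2 and Mapre3 were not among them. How often the rule finds lowered genes of low level was therefore not tested. The simulated draws hold counting error and no difference between animals. The 0 of 9751 therefore says nothing of false calls that differences between animals would bring. A comparison of the proteins was planned and not made here, and the nerve and glia marker list is not reported here.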

Additional observations from a re-analysis of the deposited data

How the results depend on the processing

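Under a pseudocount of 0.1 RPKM, rescaling by a trimmed mean or by 73 ribosomal protein genes, no filter, and no pseudocount (added after seeing the data), the same count of 2 members was past 2-fold and past 25%. Over the alternatives run on single genes, Tuba8 ranged from -2.36 to -1.92 and Tuba4a from -1.70 to -1.41 on the log2 scale, and none of the 10 members changed sign. The median of the members was -0.050 with the trimmed mean and -0.063 with ribosomal protein scaling, which lower values by up to 0.01 and 0.02. List medians near 0 crossed it under some alternative for the folding cofactors (-0.0027 to 0.019), the end- and lattice-binding genes (-0.077 to 0.0012) and the spermatogonial markers (-0.0033 to 0.017). Among all genes, 332 were lower and 68 higher at 2-fold with a pseudocount of 0.1 RPKM, and 348 and 74 with none, against 195 and 23, since a smaller pseudocount shrinks low genes less. On the lists, the pseudocount of 0.1 RPKM brought Ttll2, Ttll10 and Mapre3 past 2-fold lower, and Tube1, Svbp, Clasp1 and the marker Sun5 past 25% lower and Haus8 and the marker Mei1 past 25% higher. The ratio of alpha to beta tubulin RNA was 1.99 in Piwil1+/- and 2.10 in Piwil1-/- over the members only, and 0.283 and 0.234 without Tuba3a and Tuba3b. With these copies summed, 7 of 9 places in the level order were shared by both libraries, against 8 of 10. No paired analysis was possible because each genotype has 1 library. The counting intervals of Tuba1a, Tuba1b, Tubb3 and Tubg1 include 1 at the reads recovered.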
